A study of Homo sapiens with 12 samples.

Results

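Polyadenylated RNA of 40 human genes whose proteins build ribosomes was followed through 12 libraries of U2OS cells, an osteosarcoma line. The genes were chosen by name as nucleolar factors that share rRNA processing with the RNA exosome, by a rule that uses no measured value, though earlier results of these data were known when it was written, and they are 40 of the 22379 genes in the table. Before the drug, the cells received Cas9 and a guide RNA on a plasmid by transient transfection. The guide had no target (NONT), cut NUP93, which encodes a scaffold protein of the nuclear pore (NUP93-KO), or cut EXOSC5, which encodes a core subunit of the RNA exosome (EXOSC5-KO). Each of the 3 genotypes was given DMSO (untreated) or 1 μM triptolide for 8 h, with 2 replicates in each of the 6 groups. Triptolide blocks RNA polymerase II initiation by binding the XPB subunit of TFIIH, so mRNA already made is left to decay. The knockouts were puromycin-selected pools that can hold edited and unedited cells, not clones. By the study's methods the NUP93 and EXOSC5 pools had a shorter selection and recovery than the others. The schedule is not given per sample, and where the NONT cells had the longer one, genotype and schedule cannot be told apart. The labels do not say that replicates came from separate transfections, so p-values measure only the spread between these samples, which may be technical.

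Ribosomes are made largely in the nucleolus. RNA polymerase I transcribes a long precursor rRNA, small nucleolar RNPs guide its methylation and pseudouridylation, and the small subunit processome and the large subunit assembly factors fold, cut and package it into the 2 subunits. The RNA exosome trims the 3′ end of the 5.8S rRNA precursor and degrades the spacers that are cut away, which is the link to the EXOSC5 guide. The mRNAs of these factors are themselves made by RNA polymerase II and are therefore direct subjects of the triptolide block.

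Values are mRNA per gene divided by the authors' ERCC size factors, so that they are meant to follow mRNA per cell. A lower value cannot be separated into fewer expressing cells and less mRNA per cell in such bulk samples. Approximate depth was 8.60 M to 11.96 M reads per library (M, mega). The sum over all genes was 11.3 M and 16.4 M in untreated NONT, and this pair stood furthest apart, with a median log2 difference of −0.51 between its replicates. NUP93 was 1395 and 1432 in untreated NUP93-KO against 1753 and 2489 in untreated NONT, and EXOSC5 was 215.9 and 147.7 in untreated EXOSC5-KO against 299.4 and 481.3, neither past the threshold in limma (adjusted p = 0.926 and 0.151). An edit need not lower the mRNA of its gene. Of the osteoblast lineage markers, RUNX2, COL1A1, SPARC, ALPL and SPP1 were above 0 in all 12 libraries, while BGLAP, the osteocalcin gene, was at 0 in 5 of them. Of the markers of other cells, CD3E was at 0 in all 12 libraries, PTPRC, KRT5, ALB, PECAM1 and CDH5 stayed at or below 9.99, and EPCAM and CDH1 reached 47.6 and 69.7.

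The filter on low values asked for an untreated mean of 10 or more, and all 40 genes passed it. Per kilobase of their canonical transcript, untreated levels ran from 41.0 for WDR12 to 19796 for NPM1. NPM1 encodes nucleophosmin, one of the most abundant nucleolar proteins, and NHP2, FBL, PES1 and BOP1 were among the genes with high levels per kilobase, at 3314, 1788, 1995 and 2133. The low end held UTP20 at 88.0, RRN3 at 82.3 and UTP15 at 95.3 per kilobase. Together the 40 genes made up 0.724% and 0.727% of all gene values in untreated NONT and 0.596% and 0.587% after triptolide. The share was 0.658% and 0.747% in untreated NUP93-KO and 0.641% and 0.638% after triptolide, and in EXOSC5-KO it was 0.695% and 0.711% untreated and 0.580% and 0.562% treated. NPM1 alone carried much of it, and without NPM1 the share in NONT was 0.524% and 0.527% untreated and 0.373% and 0.348% treated.

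After triptolide in NONT, all 40 genes were lower and passed the threshold (limma, adjusted p under 0.05 over 13811 genes), where 90% of all genes tested were called lower. None was called higher (0.0507% of all genes). Their median log2 fold change was −2.25, against −1.62 for all genes tested, a distance of −0.63 that lay between −0.64 and −0.56 when each treated library was set against each untreated one (4 pairings). In 29 of the 40 the change was below that of the median gene. The median gene of the group kept 20.8% of its untreated mean, 38 genes kept under 50% and 11 kept under 10%. For all 40 genes the treated pair lay below the untreated pair without overlap, as for 94.8% of all genes tested. These counts depend on the spike-in scale. With every library set to the same total, the median of all genes moved from −1.62 to −0.32 and 29 of the 40 were called lower and 3 higher (NPM1, NOP58 and NHP2). With DESeq2-type median-of-ratios scaling, which holds the typical gene constant, it moved to −0.02 and 22 were called lower and 5 higher (the same 3 with BOP1 and NOP10). The distance of the 40 from all genes was −0.60 and −0.59 on these scales. A scale shifts all genes of a library alike, so this distance can move only through the 1 added before the log. Its steadiness is therefore not a test of the scale. Called or not, 5 of the 40 genes were above 0 with the same total (NPM1, NOP58, NHP2, BOP1 and NOP10) and 11 with median of ratios (these with TSR1, FBL, NCL, DDX21, PES1 and WDR12). On a scale set by the 13 mitochondrial mRNAs, all 40 were called lower. The share of all genes called was counted on the spike-in scale only, here and below. Counts of calls on the other scales thus lack that comparison.

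The spread within the group was wide, from 1.45% left for RRS1 to 55.0% left for NHP2. Genes named below beyond the lowest and the highest of each functional class were picked after their values had been seen.

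**Figure D1:**
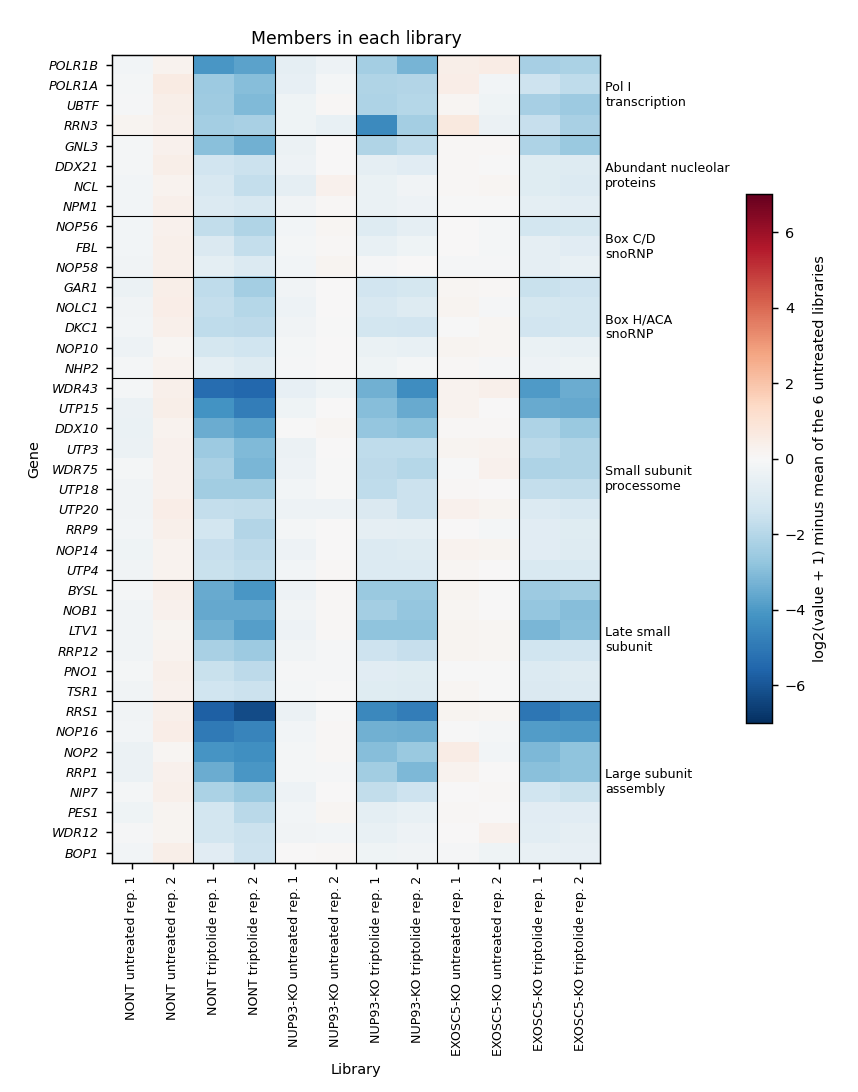
Heat map of log2(value + 1) for the 40 ribosome biogenesis genes, each shown relative to its own mean over the 6 untreated libraries. Rows are genes by functional class and columns are the 12 libraries, and on this spike-in scale the treated libraries are lower in nearly every row, most of all for RRS1 and WDR43.

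All 4 genes of the RNA polymerase I class fell. POLR1B encodes the second-largest subunit of the polymerase, and its value was 984.9 and 1330 in untreated NONT against 65.7 and 82.3 after triptolide. The treated pair lay far below the untreated pair, with a log2 fold change of −3.94 ± 0.27 (SE, limma adjusted p = 1.76e-09). RRN3, which encodes the initiation factor TIF-IA that links the polymerase to its promoter, was at 336.2 and 367.7 untreated and at 55.6 and 60.4 treated. It had the smallest fall of the class, −2.58 ± 0.51 (SE, limma adjusted p = 0.000187). POLR1A, the largest subunit, kept 12.6% and UBTF, the upstream binding factor of rDNA, kept 12.8%. The class median was −2.97 on the log2 scale over 4 genes.

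The abundant nucleolar proteins and the snoRNP proteins kept more of their mRNA, with class medians of −1.50 for the former, −1.42 for box C/D and −1.87 for box H/ACA. NPM1 was at 22701 and 32990 in untreated NONT and at 13183 and 11720 after triptolide. These pairs did not overlap, and the log2 fold change of −1.14 ± 0.22 (SE, limma adjusted p = 0.000131) was the smallest of the class, and it was above 0 with the same total and with median of ratios. GNL3, which encodes nucleostemin, a GTP-binding nucleolar protein, was the exception in this class, with values of 817.0 and 1088 untreated and 116.0 and 85.7 treated. Its log2 fold change was −3.23 ± 0.25 (SE, limma adjusted p = 8.71e-09), while nucleolin (NCL) and the RNA helicase DDX21 kept 37.6% and 32.8%.

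Of the box C/D snoRNP proteins, which carry out 2′-O-methylation of rRNA, NOP58 was at 1828 and 2816 in untreated NONT and at 1328 and 1108 treated. The change of −0.90 ± 0.21 (SE) passed the threshold in limma (adjusted p = 0.000944) but left 52.5% of the untreated mean, and it was above 0 on the same 2 scales. Its partner NOP56 went from 2308 and 3276 to 786.7 and 616.1, a log2 fold change of −1.98 ± 0.21 (SE, limma adjusted p = 2.57e-07). FBL, the methyltransferase fibrillarin, kept 37.7%, and its row was identical in every library to that of another gene ID, so its reads cannot be assigned to 1 of the 2.

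Of the box H/ACA proteins, which carry out pseudouridylation, NHP2 was at 2330 and 3063 in untreated NONT and at 1587 and 1379 treated, the smallest change of the 40 genes at −0.85 ± 0.18 (SE, limma adjusted p = 0.000427). GAR1 had the largest change of this class, from 411.2 and 721.3 to 161.3 and 104.1, at −2.06 ± 0.28 (SE, limma adjusted p = 3.97e-06). The pseudouridine synthase DKC1 kept 26.8%, the chaperone NOLC1 25.6% and the small core protein NOP10 42.4%. The 5 genes of this class thus ranged from 23.4% to 55.0% left, and NHP2 turned to above 0 with the same total and with median of ratios.

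The small subunit processome, the large particle that assembles on the 5′ end of the precursor rRNA, had a class median of −2.62 over 10 genes. WDR43 belongs to its UTP-A subcomplex, and its 18 exons span chr2:28894667-28948219 (GRCh38, plus strand). It went from 1785 and 2552 in untreated NONT to 47.1 and 43.3 after triptolide, a log2 fold change of −5.53 ± 0.28 (SE, limma adjusted p = 1.27e-10). Only 2.08% was left. UTP4, of the same subcomplex, was at 1620 and 2287 untreated and at 642.7 and 574.7 treated. Its change of −1.66 ± 0.20 (SE, limma adjusted p = 9.48e-07) was the smallest of the class and left 31.2%. UTP15 and WDR75, also of UTP-A, kept 4.14% and 14.8%, so mRNAs of 1 subcomplex lay far apart. UTP18 of the UTP-B subcomplex kept 17.4%, the scaffold protein UTP20 27.9%, the U3 snoRNP protein RRP9 29.9%, NOP14 30.0%, UTP3 14.6% and the RNA helicase DDX10 8.67%.

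The late small subunit factors act on the pre-40S particle as it leaves the nucleolus, and their class median was −3.02 over 6 genes. BYSL, which encodes bystin, had the lowest change, from 1666 and 2346 in untreated NONT to 158.8 and 111.3 treated, or −3.88 ± 0.23 (SE, limma adjusted p = 4.56e-10). NOB1, the endonuclease that makes the 3′ end of 18S rRNA, kept 7.96%, and PNO1, which binds beside it, kept 29.0%. LTV1 kept 8.13% and RRP12 18.2%. TSR1 was at 1292 and 1905 untreated and at 575.1 and 538.9 treated, the smallest change of the class at −1.49 ± 0.20 (SE, limma adjusted p = 3.35e-06), which turned to 0.15 with median of ratios.

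The 8 large subunit assembly factors had the lowest class median, −3.11. RRS1 takes part in placing the 5S RNP in the pre-60S particle, and its mRNA had the largest change of the 40 genes. It was at 905.3 and 1372 in untreated NONT and at 19.9 and 13.2 after triptolide, −6.02 ± 0.29 on the log2 scale (SE, limma adjusted p = 8.06e-11), which placed it at the 1.66 percentile of all genes tested. NOP16, NOP2, an rRNA methyltransferase, and RRP1 kept 3.12%, 5.71% and 7.41%, and NIP7 kept 17.4%. The 3 subunits of the PeBoW complex kept more: PES1 34.5%, WDR12 36.7% and BOP1 42.9%. BOP1 was at 4531 and 6734 untreated and at 2954 and 1883 treated, and its change of −1.23 ± 0.22 (SE, limma adjusted p = 9.33e-05) was the smallest of the class, and above 0 with the same total and with median of ratios.

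**Figure D2:**
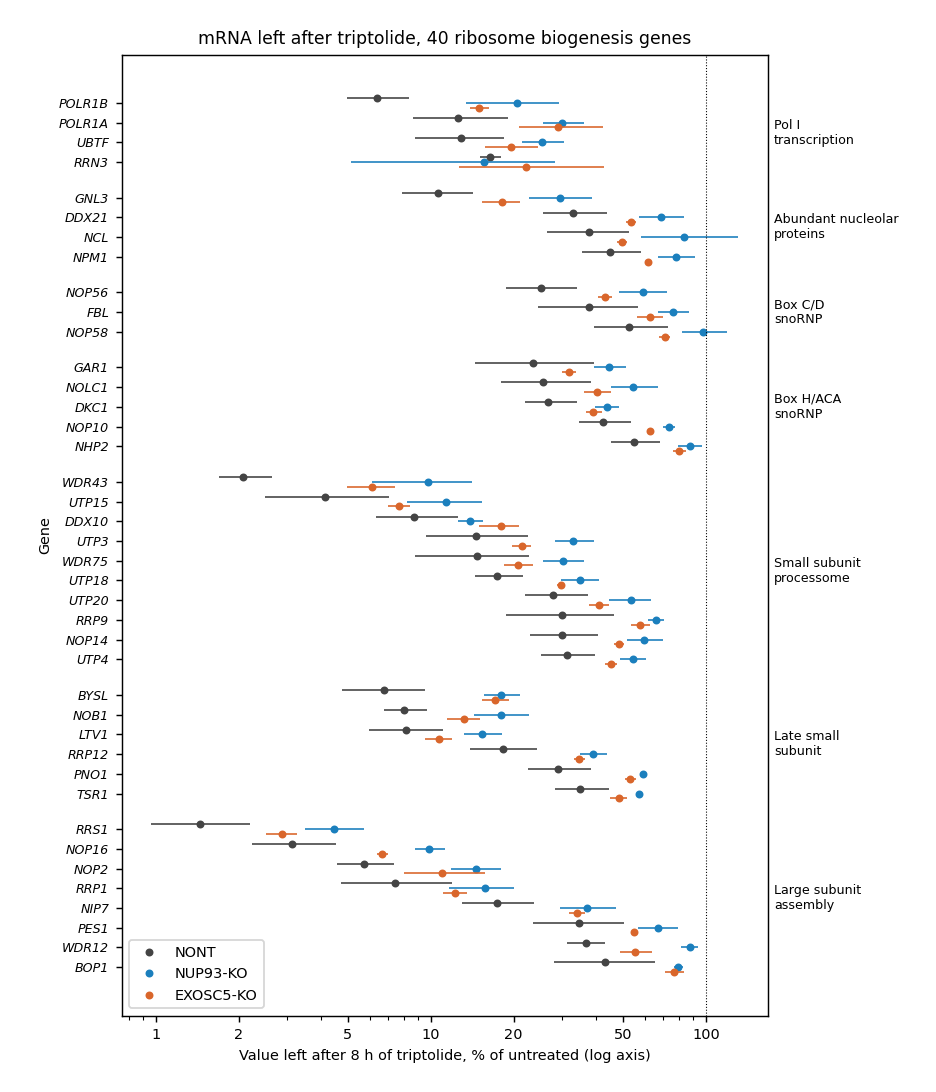
Percent of the untreated mean left after triptolide for each of the 40 genes in NONT, NUP93-KO and EXOSC5-KO, on a log axis, with the range over the 4 pairings of libraries as the error bar. RRS1 is lowest in every genotype, on this spike-in scale, at 1.45%, 4.45% and 2.88%, and NHP2 and NOP58 are at the high end.

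In NUP93-KO, 32 of the 40 genes were called lower after triptolide, where 55.1% of all genes tested were, and none was called higher (0.138% of all genes). The member median was −1.28, against −0.92 for all genes tested, and 23 of the 40 were below the median gene. The distance of −0.36 ranged from −0.45 to −0.25 over the 4 pairings. The median gene of the group kept 41.3%, 22 kept under 50% and 3 under 10% (RRS1, WDR43 and NOP16). The treated and untreated pairs did not overlap for 38 genes, as for 79.1% of all genes, and the exceptions were NCL and NOP58. With the same total per library the calls were 25 lower and 3 higher (NPM1, NOP58 and NHP2), and with median of ratios 21 lower and 10 higher. On these scales 9 and 17 of the 40 were above 0, while on the mitochondrial scale 37 were called lower and none was above 0. The median of all genes was −0.36, −0.04 and −1.22 on the 3 scales, and the share of all genes called was not counted.

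The 8 genes that did not pass in NUP93-KO were the ones that kept the highest share. NOP58 was at 1880 and 2509 untreated and at 2053 and 2243 treated, and its log2 fold change was −0.02 ± 0.21 (SE, limma adjusted p = 0.951). NCL was at 4042 and 7821 untreated and at 4560 and 5296 treated, so its pairs overlapped and its untreated replicates were far apart. WDR12, NHP2, BOP1, NPM1, FBL and NOP10 had log2 fold changes of −0.19, −0.19, −0.33, −0.35, −0.39 and −0.44, with limma adjusted p from 0.0803 to 0.504. A p above the threshold with 2 libraries a group does not show that these mRNAs stayed the same.

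RRS1, WDR43, NOP16 and UTP15, which kept the least in NONT, did so again in NUP93-KO. RRS1 was at 811.8 and 1079 untreated and at 46.3 and 37.8 treated, −4.45 ± 0.29 (SE, limma adjusted p = 4.98e-09). WDR43 was at 1328 and 1586 untreated and at 188.2 and 97.2 treated, −3.41 ± 0.28 (SE, limma adjusted p = 5.14e-08). NOP16 kept 9.88%, UTP15 11.3%, DDX10 13.9% and NOP2 14.6%. RRN3 went from 239.7 and 198.8 to 12.3 and 56.1, a change of −2.99 ± 0.51 (SE, limma adjusted p = 8.92e-05), but its treated replicates were further apart in ratio than those of any other of the 40 genes, and 5 pseudogenes carry its name. It was the 1 gene of the 40 with a larger fall in NUP93-KO than in NONT.

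In EXOSC5-KO, 37 of the 40 genes were called lower, where 64.3% of all genes tested were, and none was called higher (0.0796% of all genes). The member median was −1.54, against −1.08 for all genes tested, and the distance of −0.46 ranged from −0.49 to −0.33 over the pairings. The median gene kept 34.4%, 29 kept under 50% and 4 under 10% (RRS1, WDR43, NOP16 and UTP15). The pairs did not overlap for any of the 40 genes, with the treated pair lower, as for 88.0% of all genes. With the same total per library the calls were 26 lower and 3 higher (NOP58, NHP2 and BOP1), and with median of ratios 21 lower and 6 higher. On these scales 7 and 14 of the 40 were above 0, while on the mitochondrial scale all 40 were called lower. The median of all genes was −0.29, −0.02 and −1.17 on the 3 scales, and the share of all genes called was not counted. RRS1 was at 1267 and 1210 untreated and at 31.9 and 39.5 treated, and WDR43 at 2361 and 2532 untreated and at 125.1 and 175.2 treated. These changes were −5.09 ± 0.29 and −4.04 ± 0.28 (SE, limma adjusted p = 1.21e-09 and 8.30e-09). The 3 genes not called were NHP2 at −0.32, BOP1 at −0.38 and NOP58 at −0.50, with limma adjusted p of 0.134, 0.142 and 0.0512.

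The order of the genes was alike in the 3 genotypes. Across the 40 genes, which are not independent replicates, Spearman's rho of the log2 fold changes in NONT was 0.96 with those in NUP93-KO and 0.98 with those in EXOSC5-KO, and the knockouts gave 0.96 with each other. No library is used in more than 1 of these 3 contrasts, but all points share the gene's own transcript and base composition. In NONT, rho of the log2 fold change was −0.12 with transcript length, −0.03 with exon number and 0.50 with the untreated level per kilobase, all over 40 genes. The genes with high levels thus tended to keep more.

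**Figure D3:**
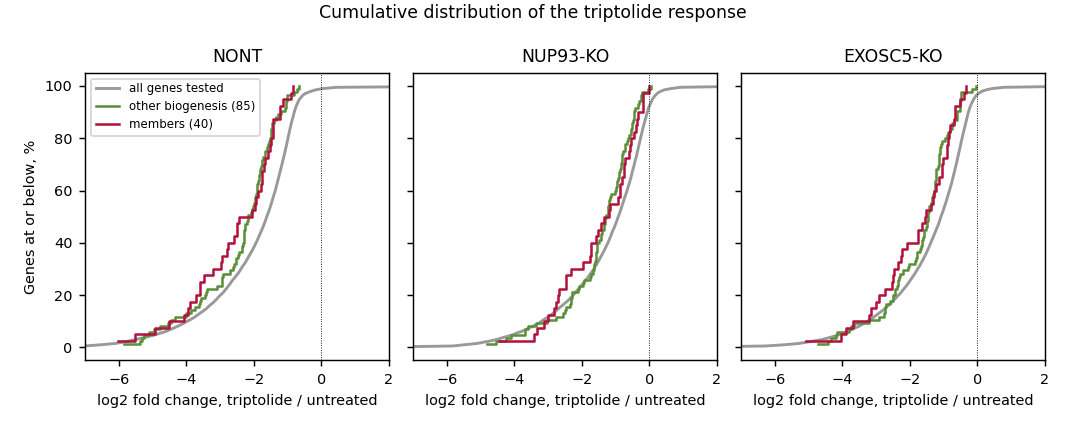
Cumulative share of genes by log2 fold change after triptolide in each genotype, for the 40 ribosome biogenesis genes, 85 further ribosome biogenesis genes and all 13811 genes tested. On the spike-in scale plotted, both biogenesis curves run to the left of all genes around the middle of the distribution, with medians of −2.25 and −2.18 against −1.62 in NONT, and they meet or cross the curve of all genes at its low end.

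The further 85 genes of the same pathway, which included other Pol I subunits, processome proteins and pre-60S factors, were counted beside the 40. After triptolide 84 were called lower in NONT, 68 in the NUP93 pool and 77 in the EXOSC5 pool, where 90%, 55.1% and 64.3% of all genes were. None was called higher. Their medians were −2.18, −1.27 and −1.46. The lowest in NONT were IMP3 at −5.86 ± 0.27 and MPHOSPH10 at −5.37 ± 0.38 (SE), which encode partners in the U3 snoRNP. The highest were DIMT1 at −0.66 ± 0.51 (SE), an 18S rRNA dimethyltransferase that did not pass (limma adjusted p = 0.222), and BUD23 at −0.72 ± 0.19 (SE), an 18S rRNA methyltransferase that did (limma adjusted p = 0.0021).

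Of the 11 RNA exosome genes, whose product acts on the same precursor, 11 were called lower in NONT, 8 with the NUP93 guide and 10 with the EXOSC5 guide, with medians of −2.12, −1.19 and −1.66. The targeted gene EXOSC5 is itself 1 of the 11 and was among those called in EXOSC5-KO. The 77 cytosolic ribosomal protein genes, the structural parts that the 40 factors assemble, had smaller log2 fold changes, a difference that was not tested. Of these, 76 were called lower in NONT, and the calls numbered 1 in NUP93-KO against 3 in EXOSC5-KO. For both lists, 90%, 55.1% and 64.3% of all genes were called lower in NONT, NUP93-KO and EXOSC5-KO. The medians of the ribosomal protein genes were −0.77, −0.08 and −0.26, above that of all genes in each genotype, while the medians of the 40 assembly factors were below it.

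Without drug, none of the 40 genes passed the threshold in either knockout against NONT. In limma 0 genes of the 40 were called in NUP93-KO against NONT, where 0.00724% of all genes were called lower and 0.0145% higher, and 0 in EXOSC5-KO, where 0.0362% were called lower and 0.485% higher. At an unadjusted p under 0.05 the count was again 0 in both on the spike-in scale. On that scale 2.45% of all genes passed lower and 1.75% higher with the NUP93 guide, and 2.46% and 6.03% with the EXOSC5 guide. With the same total, by median of ratios and on the mitochondrial scale the count was 1, 3 and 2 lower in NUP93-KO. It was 1, 7 and 14 lower in EXOSC5-KO, with 1 higher there with the same total. The share of all genes that passed was not counted on these scales. On the mitochondrial scale the median of all genes in EXOSC5-KO against NONT was −0.30, against 0.07 on the spike-in scale. On the mitochondrial scale and by median of ratios 1 of the 40, BOP1, was called lower in EXOSC5-KO. The median log2 difference was −0.15 for NUP93-KO, with 36 of 40 below 0, and 0.04 for EXOSC5-KO, with 17 below 0. The first was 0.11 without the second untreated NONT library, and the second was −0.25 without the first of that pair. The medians of all genes in the 2 contrasts were −0.09 and 0.07, with 8806 and 5588 of the 13811 genes tested below 0. The extremes in NUP93-KO were RRN3 at −0.69 ± 0.51 and DDX10 at 0.16 ± 0.25 (SE), and in EXOSC5-KO BOP1 at −0.28 ± 0.22 and POLR1B at 0.43 ± 0.27 (SE). In NUP93-KO, 5 genes had both libraries below both of NONT (POLR1B, RRN3, UTP20, WDR43 and WDR12), where 12.8% of all genes did, and none had both above (7.93%). In EXOSC5-KO, 2 genes had both libraries above (POLR1B and NOP10), where 19.2% of all genes did, and none had both below (9.2%).

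Whether the fall after triptolide differed between genotypes was tested as a difference of responses. Against NONT the fitted fall was smaller in NUP93-KO for 39 of the 40 genes, and the difference was above 0 for 12711 of the 13811 genes tested. The median difference of the 40 was 1.04 on the log2 scale, against 0.74 for all genes tested. The median of the 40 was 0.27 with the same total per library, 0.29 by median of ratios and 0.38 on the mitochondrial scale, where that of all genes was −0.0178, 0.00346 and 0.0883. The difference was above 0 for 35, 35 and 38 of the 40. Here and in the contrasts below, a change of scale moves both medians nearly alike, so their distance is not a test of the scale. How many of all genes lay above 0 was not counted on these scales. In limma 1 gene of the 40 was called, WDR43 at 2.12 ± 0.40 (SE, adjusted p = 0.0317), where 0.76% of all genes were called higher. At an unadjusted p under 0.05, 38 of the 40 passed, where 41.3% of all genes did. With the same total, by median of ratios and on the mitochondrial scale 7, 12 and 7 did so, and the share of all genes was not counted there. In 36 of the 40, all 4 pairings of NUP93-KO lay above all 4 of NONT, where 54.8% of all genes did, and in none did all lie below (0.775%). The distance of the median from all genes was 0.30 and ranged from 0.08 to 0.49 over 16 combinations of pairings.

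WDR43 shows the size of this difference in single libraries. In NUP93-KO its untreated values of 1328 and 1586 lay below those of NONT at 1785 and 2552, and its treated values of 188.2 and 97.2 lay above those of NONT at 47.1 and 43.3. It kept 9.80% in NUP93-KO and 2.08% in NONT, and no pairing overlapped, with 6.13% to 14.2% against 1.70% to 2.64%. The call was lost when libraries were given the same total (1.36, limma adjusted p = 0.328), when the filter on low values was dropped (limma adjusted p = 0.0916), and when the second untreated or treated NONT library, either untreated NUP93-KO library or the first treated one was left out (limma adjusted p from 0.0513 to 0.158). Of the 85 further biogenesis genes, 4 passed in this contrast, where 0.76% of all genes were called higher. They were NIFK at 2.02 ± 0.35 (SE), which binds the proliferation antigen Ki-67, and the Pol I subunits POLR1G, POLR1D and POLR1E. These subunits were at 1.68 ± 0.37, 1.39 ± 0.31 and 1.28 ± 0.27 (SE), and limma adjusted p ran from 0.0271 to 0.0488. Whether these calls hold on the other scales, with other filters or with libraries left out was not examined.

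Between EXOSC5-KO and NONT the difference was above 0 for 40 of 40 genes, where it was for 12398 of the 13811 genes tested. Its median was 0.69 for the 40, against 0.57 for all genes. With the same total, by median of ratios and on the mitochondrial scale it was above 0 for 28, 26 and 34 genes, with medians of 0.145, 0.12 and 0.236 against 0.0438, 0.0197 and 0.135 for all genes. None of the 40 was called in limma, where 0.319% of all genes were called higher. At an unadjusted p under 0.05, 18 passed, where 23.1% of all genes did. On those scales 7, 7 and 3 passed, and the share of all genes was not counted there. In 28 of the 40, all pairings of EXOSC5-KO lay above all of NONT, where 41.0% of all genes did, and in none did all lie below (1.19%). WDR43 had the largest difference, 1.50 ± 0.40 (SE, limma adjusted p = 0.123), followed by BYSL at 1.35 ± 0.33 (SE, limma adjusted p = 0.094). Both contrasts use the 4 NONT libraries, so they are not separate evidence. The number called among the 40 in both contrasts depended heavily on single libraries, most of all on which untreated NONT library was left out. The share of all genes called in those fits was not counted. With single libraries left out, the distance of the median from all genes ranged from 0.22 to 0.38 for NUP93-KO minus NONT. For EXOSC5-KO minus NONT it ranged from 0.07 to 0.20.

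The knockouts were also compared with each other. EXOSC5-KO minus NUP93-KO was below 0 for 38 of the 40 genes, where it was for 9289 of the 13811 genes tested. Its median was −0.36 on the log2 scale for the 40, against −0.16 for all genes. With the same total, by median of ratios and on the mitochondrial scale it was below 0 for 29, 30 and 29 genes, with medians of −0.131, −0.178 and −0.15 against 0.0589, 0.0138 and 0.0446 for all genes. None of the 40 was called in limma, where 0.0145% of all genes were called lower and 0.00724% higher, and 1 gene passed at an unadjusted p under 0.05 (NCL at −0.82 ± 0.37, SE), where 3.09% of all genes did. DDX10 and RRN3 were the 2 genes with a difference above 0, at 0.35 ± 0.36 and 0.90 ± 0.72 (SE).

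**Figure D4:**
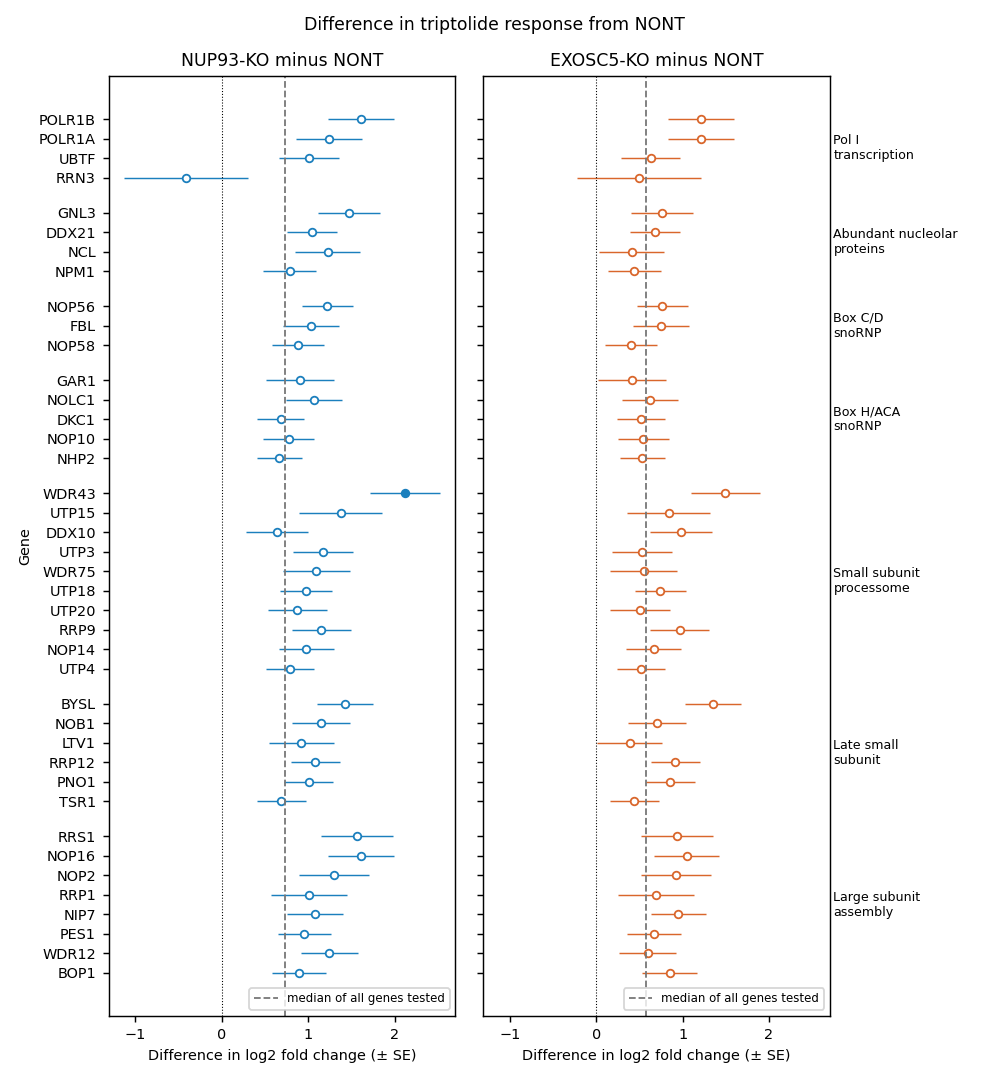
Difference in the log2 response to triptolide, NUP93-KO minus NONT and EXOSC5-KO minus NONT, for each of the 40 genes, with the standard error from limma as the bar and a filled point where the adjusted p passed. The dashed line is the median of all genes tested (0.74 and 0.57), and WDR43 lies furthest to the right in both at 2.12 and 1.50.

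Several features that played no part in the choice of the genes were read from the annotation. Of the 40 genes, 7 hold snoRNA or scaRNA genes within their bounds on the same strand (17.5%, against 1.81% of the 12995 tested genes with a match), 25 small RNA genes in all. Most human snoRNAs are cut from introns of such hosts, and the poly(A) libraries measure only the host mRNA. The hosts were GNL3 with 6, NOP56 with 5, NOP58 with 4, NCL and WDR43 with 3 each, and DKC1 and TSR1 with 2 each. Their log2 fold changes in NONT ran from −5.53 to −0.90 with a median of −1.87, against −2.49 for the other 33. The canonical transcripts were shorter, with a median of 2346 bases against 3448 for all tested genes, and had more exons, 14.5 against 9. Pseudogenes carry the names of 10 of the 40 genes, 49 of them for NPM1, and reads of these genes can be split with such copies.

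Promoters were searched for letters that the choice of the genes had not used. RefSeq windows on GRCh38.p14, from 250 bases before to 50 after each gene's start, matched 35 of the 40 genes, and RRP12, BOP1, NOLC1, NOP58 and RRS1 had none. The hexamer CACGTG, the E-box to which MYC with MAX and other helix-loop-helix factors bind, is its own reverse complement, so both strands are read at once. It stood in 13 of the 35 windows (37.1%), against 10.2% of the 10497 tested genes with a window and 7.43% of all 27305 windows. CCAAT, the CCAAT box, stood in 42.9% of the 35 windows on either strand and in 36.3% of those of tested genes, and GGAAG, the core of ETS motifs, in 82.9% and 76.2%. A match is a run of letters and not a site shown to be bound, and the starts given by RefSeq can differ from those of GENCODE.

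The 15 matches are printed with 8 bases on each side, because most lie close to the start of their gene. The hexamer is in capitals, and each line reads 5′ to 3′ on the strand of the gene.
FBL (chr19:39846360-39846381, minus): ctcttttcCACGTGcgaaagcc
NOP10 (chr15:34343293-34343314, minus): ggacactcCACGTGttttagcc
NOP10 (chr15:34343134-34343155, minus): ttgacgaaCACGTGacgcggtc
UTP4 (chr16:69132625-69132646, plus): cgcgcgcgCACGTGgggccggg
UTP18 (chr17:51260449-51260470, plus): gtgctggtCACGTGgcaagagg
UTP18 (chr17:51260542-51260563, plus): cgaggttcCACGTGagcgcctg
UTP20 (chr12:101280087-101280108, plus): tttccgtcCACGTGacccactc
WDR43 (chr2:28894662-28894683, plus): cggacgaaCACGTGgctgcagc
RRP9 (chr3:51941896-51941917, minus): tcagctgcCACGTGagttctgc
NOP14 (chr4:2963378-2963399, minus): cggcccggCACGTGtcttaggg
BYSL (chr6:41921519-41921540, plus): tcagtcccCACGTGcgatcctt
LTV1 (chr6:143843358-143843379, plus): tggggctgCACGTGtggtgagg
PNO1 (chr2:68157889-68157910, plus): cagctgcgCACGTGtttcagcc
PES1 (chr22:30591884-30591905, minus): tggcagggCACGTGcgggagga
NOP2 (chr12:6568243-6568264, minus): ccggattgCACGTGgagggccg

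Of these 15 matches, 13 began between 20 bases before and 40 bases after the start given by RefSeq, and only the first of NOP10, at −170, and the first of UTP18, at −89, lay further upstream. UTP18 has a match on either side of its start, and the 250 bases before the start are given as the longer context of the upstream one, with that hexamer again in capitals.
UTP18 (chr17:51260296-51260545, plus): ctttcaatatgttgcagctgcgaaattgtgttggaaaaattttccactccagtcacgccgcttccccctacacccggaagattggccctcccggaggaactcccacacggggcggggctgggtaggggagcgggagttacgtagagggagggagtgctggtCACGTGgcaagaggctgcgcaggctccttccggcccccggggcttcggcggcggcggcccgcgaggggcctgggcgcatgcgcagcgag

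The 13 genes with the hexamer included WDR43, BYSL, LTV1 and NOP2, which were among the lowest after triptolide, and FBL, NOP10 and PES1, which were among the highest. Their median log2 fold change in NONT was −1.77, against −2.67 for the 22 genes with a window and no match. These medians describe the genes and were not tested.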

How the data were processed

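Polyadenylated RNA of 12 U2OS libraries (6 groups of 2) was analysed. Groups and replicate numbers came from the labels. The authors ran kallisto 0.46.1, summed to genes with tximport, filtered for protein-coding genes and applied DESeq2 size factors set on 92 ERCC spike-ins. The submitters' processing notes name GRCh38. The deposited values are therefore a spike-in-normalised signal, not counts: 17.2% to 29.2% of values under 8 were whole multiples (within 0.01) of the worth of 1 read, so no count model was used.

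Of 22379 gene IDs, 19584 matched GENCODE release 44. Genes with an untreated mean of at least 10 (13811) were fitted as log2(value + 1) with limma 3.58.1 in R 4.3.3 (6 group means, all 12 libraries, eBayes with trend, 8 contrasts, two-sided, Benjamini-Hochberg over all genes, threshold 0.05). Fold changes on this scale understate those of low genes. The fit was tested on simulated data with independent noise for each gene and few changed genes. That simulation held no shift of whole libraries, so it does not show how the calls behave under such shifts. The genes were set by name and not by values, but they and the lists were chosen with earlier results of these data known. Named genes were the lowest and highest of each class in NONT, those called in a difference, and the extremes of each untreated contrast. Summaries used pandas 2.3.3 and SciPy 1.17.1, and figures matplotlib 3.10.9. Alternatives were other filters, pseudocounts and scalings, no trend, a replicate block, only the groups compared, and each library left out.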

Additional observations from a re-analysis of the deposited data

Results flagged for a closer look

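WDR43 differed between genotypes in its response to triptolide by 2.12 on the log2 scale, NUP93-KO minus NONT (limma, adjusted p = 0.0317), and was the only one of the 40 genes whose difference passed. The treated value was higher in 4 of 4 comparisons of a NUP93-KO with a NONT library, and how many of all genes did so was not counted. The untreated value was lower in 4 of 4, as for 12.8% of all genes tested. The limma adjusted p ranged from 0.00349 to 0.158 when single libraries were left out, and was 0.328 with the same total per library, 0.319 with median of ratios, 0.0916 with no filter on low values, 0.129 with no trend and 0.493 on the scale of the mitochondrial mRNAs. The difference itself was 1.36, 1.38 and 1.47 with the same total, with median of ratios and on the mitochondrial scale.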

How the results depend on the processing

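Scaling changed both counts and directions. Among the 40 genes after triptolide, 3 were called higher with the same total per library, and this held in each of the 3 genotypes. Median of ratios gave 22, 21 and 21 called lower and 5, 10 and 6 called higher. The share of all genes called was not counted on either scale. Of the 40 genes, 5, 9 and 7 turned to above 0 with the same total in NONT, NUP93-KO and EXOSC5-KO, 11, 17 and 14 did so with median of ratios, and none did on the mitochondrial scale. Among the genes named by rule, those that turned on both of the first scales were, in NONT, NPM1 at 0.20 and 0.50, NOP58 at 0.44 and 0.74, NHP2 at 0.49 and 0.79 and BOP1 at 0.11 and 0.42. In NUP93-KO they were NPM1 at 0.22 and 0.54, NOP58 at 0.55 and 0.88, NHP2 at 0.38 and 0.70 and BOP1 at 0.24 and 0.56. In EXOSC5-KO they were NPM1 at 0.0955 and 0.37, NOP58 at 0.29 and 0.57, NHP2 at 0.47 and 0.75 and BOP1 at 0.41 and 0.69. Of the same named genes, with median of ratios alone TSR1 turned to 0.15 in NONT, 0.0903 with the NUP93 guide and 0.0193 with the EXOSC5 guide, and NOP56 and UTP4 turned to 0.13 and 0.0157 in NUP93-KO. In untreated EXOSC5-KO against NONT, 1 gene was called lower by median of ratios and 1 on the mitochondrial scale. The medians of the 40 were −0.0632 and −0.34 there, against −0.028 and −0.304 for all genes.

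The distance of the members' median from all genes after triptolide was with no filter on low values −0.94 in NONT, −0.57 for the NUP93 guide and −0.69 for the EXOSC5 guide. In NONT it was −0.73 with a pseudocount of 5 and −0.59 with median of ratios. When single libraries were left out it ranged from −0.67 to −0.59 in NONT, and in the untreated contrasts from −0.16 to −0.0253 for NUP93-KO and from −0.0575 to −0.018 for EXOSC5-KO. It ranged from 0.0703 to 0.20 for EXOSC5-KO minus NONT and from −0.26 to −0.0849 for EXOSC5-KO minus NUP93-KO.

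The share of all genes called was not counted in the alternative fits of this paragraph. Calls in the difference NUP93-KO minus NONT numbered 20 with an untreated mean of at least 50, and 0 with no filter, with no trend, with the same total, with median of ratios and on the mitochondrial scale. They ranged from 0 to 39 when single libraries were left out, with 39 without the first and 0 without the second untreated NONT library. Those of EXOSC5-KO minus NONT ranged from 0 to 30, and the cause of these shifts was not tested. With single libraries left out, NOP58 after triptolide in NUP93-KO ranged from −0.23 to 0.19, with 0.0465 without the first treated library. The untreated member median of NUP93-KO ranged from −0.44 to 0.11 and its DDX10 from −0.20 to 0.52. Without the second untreated NONT library, BOP1 in untreated EXOSC5-KO was 0.00285. Without the first, the untreated member median of EXOSC5-KO was −0.25, and it was −0.00199 without the first untreated EXOSC5-KO library.

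Same-numbered replicates did not deviate together (r from −0.0513 to 0.0368 across genes), so the numbers were not taken as pairs. With a replicate block, 31 genes were called lower in NUP93-KO in place of 32 (RRP9 missed, limma adjusted p = 0.051), and the counts of 40 in NONT and 37 in EXOSC5-KO stood. The block changed none of the counts at the adjusted threshold in the untreated contrasts or the differences. At an unadjusted limma p under 0.05 it gave 17 genes in place of 18 for EXOSC5-KO minus NONT. Groups of 2 libraries, and the difference in scale between the untreated NONT pair, limit what can be said of the genotypes. Depth limits the lowest treated values, RRN3 at 12.3 in a NUP93-KO library and RRS1 at 13.2 in a NONT library, where 1 read was worth about 0.875 and 0.490.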
